A study of Mus musculus with 6 samples.

Results

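The genes of the proteasome were followed in nascent RNA from iMEF cells, immortalised mouse embryo fibroblasts, during the first hours after ASH2L was removed. The genes were chosen by symbol, as those beginning with Psma to Psmg and a number, together with Pomp, with a deposited mean of at least 10 in both tables and without Psmb8, Psmb9 and pseudogenes. Of 56 symbols that matched, 7 were left out by name and 2 by their mean, which left 47 of the 55401 genes listed, or of the 14267 whose mean reached 10 in both tables. Since the mean level chose the members, their levels are given as a description. The members nearest the threshold were Psmb7, with a deposited mean of 15.8 in the 4 h table and 12.5 in the 8 h table, Psmd10, at 18.0 and 34.0, and Psma8, at 25.3 and 31.2, whereas Psmb11, at 1.66 and 0, and Psme2b, at 0.318 and 0, lay below the threshold. One member, Psmc3ip, encodes the meiotic recombination protein Hop2, was named for binding a proteasome ATPase and is not a proteasome subunit, so that 46 members are proteasome genes and Psmc3ip is given apart from them.

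The study had 6 samples in 3 groups of 2. The cells of all 3 groups had lost the endogenous Ash2l by deletion of an exon and grew on FKBP-HA2-ASH2L, human ASH2L fused to an FKBP tag and introduced with a lentiviral construct. The study isolated such cells as clones, and the labels do not name the clone used here. By the labels, the cells were left untreated or received dTAG-13 for 4 h or 8 h. dTAG-13 binds the tag and a ubiquitin ligase at once, and the fusion protein is then destroyed by the proteasome. ASH2L is a core subunit of the enzymes that methylate lysine 4 of histone H3. Newly made RNA was labelled with an alkyne nucleoside, coupled to biotin by click chemistry, pulled down and sequenced. The paper also describes a poly-A selection before sequencing. In the paper, labelling ran over a window that began before and ended after each of the 2 times. The terms 4 h and 8 h thus name the groups, and the RNA was collected somewhat later. The labels do not say that samples sharing a group were grown as separate cultures, and p-values therefore cover no more than the spread between these libraries.

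The proteasome is the protease that degrades proteins tagged with ubiquitin. Its 20S core is a barrel of stacked rings, in which alpha subunits form the gates and beta subunits hold the active sites, and the 19S cap recognises, unfolds and feeds the substrate through a ring of ATPases. Alternative caps can replace the 19S cap, and dedicated chaperones put the rings together. In mammalian cells with too little proteasome activity, the transcription factor NFE2L1 raises the genes of the whole complex together by binding antioxidant response elements in their promoters.

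The deposited tables hold 1 mean per gene and table. The 6 library values behind each pair of means were recovered as whole numbers and divided by a size factor for each library, and the quotient is called the normalised value here. The 2 libraries that enter both tables were taken as the untreated cells, and library numbers 1 and 2 within a group carry no order and were not tied to the samples' replicate numbers. Since 4 h and 8 h are compared with the same 2 untreated libraries, a like direction at both times is not independent evidence. Summed over the genes recovered, the whole numbers came to 10268155 and 7279415 in untreated cells, 17380906 and 11986596 after 4 h, and 24438860 and 17168808 after 8 h. The whole numbers had gaps in some libraries (up to 15 of the values 1 to 40 never occurred) and are thus not read counts, so that depth in reads is unknown. Size factors remove any change that most genes share. Before size factors, the median log2 fold change of all genes tested was 0.74 at 4 h and 1.25 at 8 h, and that of the members was 0.78 and 1.25. All changes below are therefore relative to the median gene.

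All 10 fibroblast markers examined, among them Col1a1, Vim and Pdgfrb, had deposited means of at least 100. Of markers of other cell types, so did 1 of 4 for leukocytes (Lyz2), 3 of 4 for epithelium and 3 of 3 for endothelium, and Cd3e was at 0 in every library. Summed endothelial markers, led by Pecam1, lay between 8786 and 9216 in untreated cells, between 9543 and 10243 at 4 h, and between 9605 and 9899 at 8 h, and their part in any result was not tested. Ash2l itself had normalised values from 729 to 1219 over the 6 libraries. Reads were assigned to mouse genes, whereas the fusion protein is encoded by human ASH2L. The level of Ash2l checks no label, since dTAG-13 acts on the fusion protein.

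With size factors, no proteasome gene was called in any comparison, and the summed nascent RNA of the 46 genes stayed within a few percent. In untreated cells the sum of normalised values was 121183 and 121038, at 4 h it was 121696 and 123208, and at 8 h it was 121817 and 120713. The 4 h mean was thus 1.11% and the 8 h mean 0.128% above that of untreated cells. The libraries at 8 h lay on either side of the untreated pair, and those at 4 h lay just above it. At 4 h, limma called 0 of 47 members at an adjusted p below 0.05, as it did 0 of 14548 genes tested (0%), and 1 member against 3.6% of all genes had an unadjusted p below 0.05. At 8 h it called 0 of 47 members and 0 of 15066 genes (0%), with 2 members against 4.52% of all genes at an unadjusted p below 0.05. Between 8 h and 4 h it called 0 members and 0 of 15145 genes (0%), and 0 members against 4.44% of all genes had an unadjusted p below 0.05. When limma was run without a mean-variance trend it called 82 (0.564%), 97 (0.644%) and 34 genes (0.224%) in the 3 comparisons and 0 members. Without size factors it called 36 members at 8 h, where it called 6071 genes (39.3%), 0 members and 0 genes (0%) at 4 h, and 0 members and 1 gene (0.0065%) between the times.

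The median log2 fold change of the members was 0.041 at 4 h, where that of all genes tested was -0.0038, and 0.0018 at 8 h, where that of all genes was 0.0061. At 4 h, 29 of 47 members lay above 0 (49.6% of all genes), and at 8 h 24 of 47 did (50.6%). Between 8 h and 4 h the members' median was -0.028 and that of all genes 0.0037, and 20 of 47 members lay above 0 (50.5%). The precision was good for most members. The fitted 95% interval lay within a 2-fold change in either direction for 39 of 47 members at 4 h (42.3% of all genes), 41 of 47 at 8 h (41% of all genes) and 42 of 47 between 8 h and 4 h (41.4%). This precision was not particular to the members. Among genes whose mean reached 1000, the median half-width of the interval (log2) was 0.32 for members and 0.33 for all genes at 4 h. At 8 h it was 0.31 and 0.34. The intervals that reached past 2-fold belonged at 4 h to Psma8, Psmb7, Psmb10, Psmd9, Psmd10, Psme3, Psmg4 and Psmc3ip. Both libraries lay above both untreated libraries for 8 members at 4 h (16.3% of all genes) and 10 at 8 h (17.6%), and below them for 5 members at 4 h (16.3%) and 7 at 8 h (16.5%). Both 8 h libraries lay above both 4 h libraries for 7 members (16.9%) and below them for 7 (16.4%). These counts were close to the shares among all genes.

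**Figure D1:**
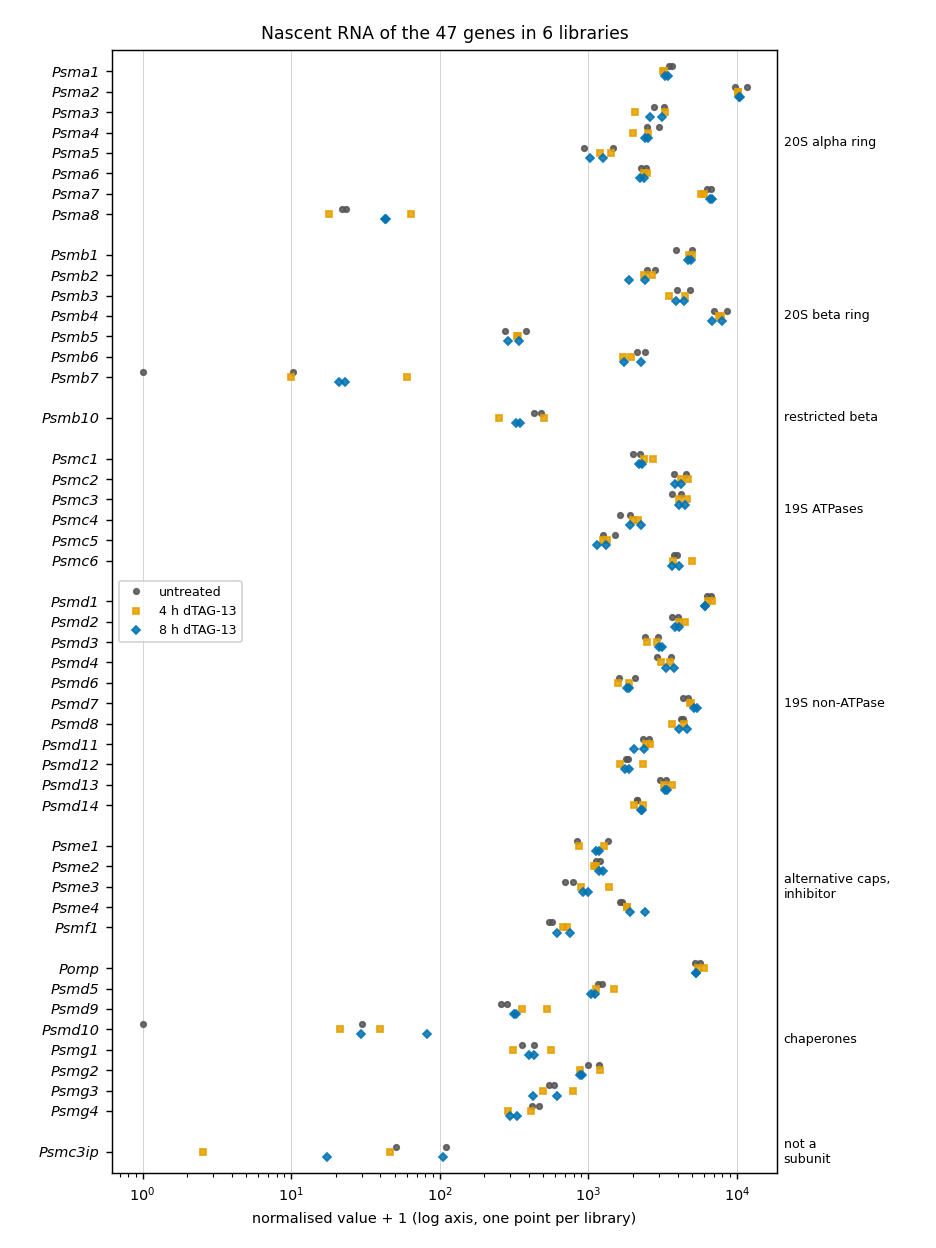
Normalised value plus 1 on a log axis for the 47 members in each of the 6 libraries, with genes in rows grouped by role (circles, untreated; squares, 4 h; diamonds, 8 h). For most genes the 6 points lie close together, and they spread most for Psmb7, Psmd10 and Psmc3ip, whose deposited means are below 100.

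Per kilobase of exon, the levels in untreated cells spanned a wide range. Psmb4 stood highest at a mean normalised value of 4027 per kilobase, followed by Psma2 at 2919, Psmb2 at 2212, Psma7 at 2130 and Psmd7 at 2007, all of them structural subunits of the core or, for Psmd7, of the cap. Of genes whose deposited mean reached 100, the lowest were Psmd9 at 37.4, Psmf1 at 86.4, Psmd5 at 166, Psmg3 at 195 and Psme4 at 198, which are chaperones, the inhibitor and an alternative cap. After 8 h the highest were Psmb4 at 3789, Psma2 at 2834, Psmd7 at 2339, Psma7 at 2182 and Psma6 at 1870, with Psmb3 at 1806 and Psmb2 at 1787 next. These levels would be distorted where only the ends of transcripts were sequenced. The paper describes sequencing of 3′ ends for this assay, whereas the labels name a total RNA kit. Exon length took in every base in an exon of any annotated transcript, 7248 bases for Psmd9. Psmd5 and Psma5 had like mean normalised values in untreated cells, 1197 and 1199. With 7230 and 1321 bases of exon, they came to 166 and 908 per kilobase. The part of exon length in the ranks was not tested.

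The members were among the more strongly transcribed genes, and the spread of their changes was compared at like levels. Among genes whose mean reached 1000, the quartiles of the log2 fold change at 4 h were -0.086 and 0.12 for 32 members, and -0.10 and 0.093 for 3020 genes. At 8 h they were -0.082 and 0.10 for 34 members, and -0.11 and 0.11 for 3488 genes. The median size of the change was 0.12 (log2) at 4 h and 0.090 at 8 h for these members. The 2 libraries of a group differed by a median of 0.17 (log2) in untreated cells, 0.17 at 4 h and 0.095 at 8 h for 35 such members, and by 0.16, 0.14 and 0.13 for 3572 such genes. For all genes of that level the median size of the change was 0.097 at 4 h and 0.11 at 8 h. The members thus varied about as much as other genes of their level. Their median change was no larger than the median difference between 2 libraries of 1 group. The 2 measures are unlike, since a change compares means of 2 libraries, which vary less than single libraries.

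**Figure D2:**
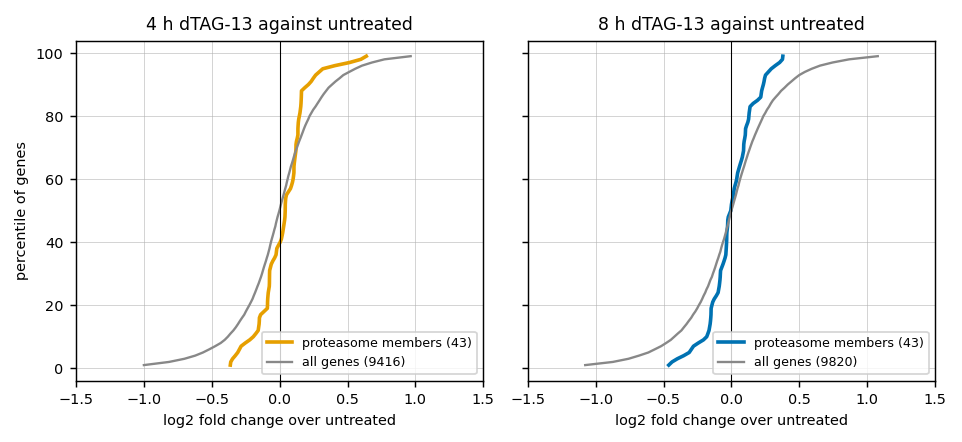
Percentiles of the log2 fold change over untreated cells at 4 h and 8 h for the 43 members and all genes whose mean reached 100 (9416 genes at 4 h and 9820 at 8 h). The members' curves cross 0 near the middle and are steeper than those of all genes, which include many genes of lower level.

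Summed by the parts of the complex, the members of the 20S core lay below and the 17 members of the 19S cap above the untreated cells at both times, each by a few percent. The 2 times share the untreated pair and are not independent. The 16 genes of the 20S core summed to 51642 and 53549 in untreated cells, 48054 and 51359 after 4 h, and 50510 and 50557 after 8 h. Their mean was thus -5.49% at 4 h and -3.92% at 8 h relative to untreated cells. Without library 1 of the 4 h group the first was -2.35% and without library 2 -8.64%, and without untreated library 2 the second was -2.15%. These 17 genes of the cap summed to 54424 and 53331 in untreated cells, 57138 and 56608 after 4 h, and 55731 and 55481 after 8 h. Their mean was 5.56% and 3.21% above that of untreated cells. For both sums the libraries of treated and untreated cells did not overlap at either time. Within the core, the 8 alpha genes summed to 29154 and 31231 in untreated cells, and overlapped at 4 h (26800 and 29203) and 8 h (29767 and 28903). The 7 constitutive beta genes summed to 22059 and 21835 in untreated cells, overlapped at 4 h (20748 and 21907) and lay below at 8 h (20416 and 21306). The ATPases of the cap, and its 11 other members, lay above the untreated pair at both times. The cap also holds Adrm1 and Sem1, whose symbols the rule does not match. With both added, a sum chosen after the values were seen, the cap came to 62492 and 62376 in untreated cells, 65351 and 63765 after 4 h, and 63931 and 62375 after 8 h. The 4 h libraries still lay above the untreated pair, by 3.4% on average, whereas the 8 h libraries overlapped with it and their mean was 1.15% higher. Without size factors the sums of the core and of the 17 cap members were above those of untreated cells, the core by 57.8% at 4 h and 129% at 8 h and the cap by 76.6% and 145%. No p is given for a sum over chosen genes, and with 2 libraries against 2 an exact permutation test could not give less than 0.333 (two-sided). The 5 genes of the alternative caps and the inhibitor summed to 5366 and 5096 in untreated cells, 6312 and 5398 after 4 h, and 6563 and 5846 after 8 h, that is 11.9% and 18.6% higher on average. Without library 1 of the 4 h group the first was 3.19% and without library 2 20.7%, and without library 1 of the 8 h group the second was 11.8%.

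**Figure D3:**
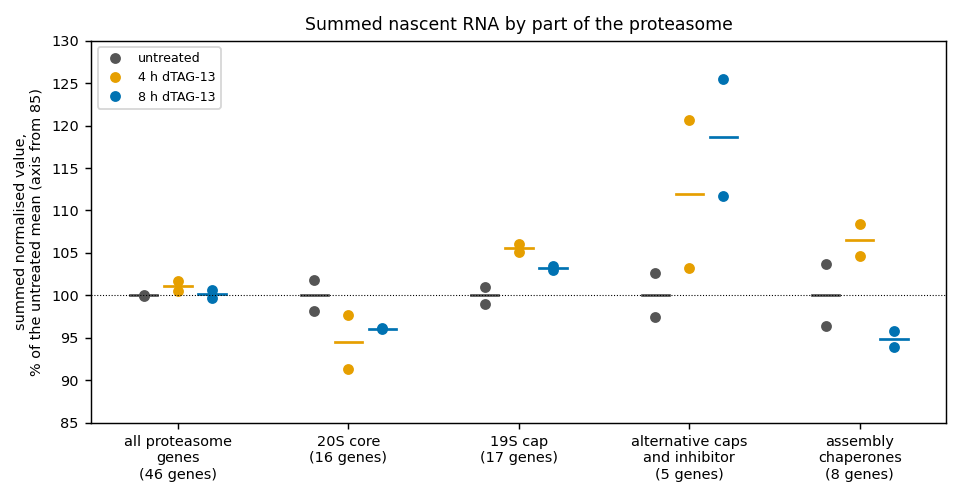
Summed normalised value of the genes of each part of the proteasome in each library, as a percentage of the mean of the 2 untreated libraries (points, libraries; short lines, group means; the axis starts at 85). All proteasome genes together stay near 100, the 20S core lies below and the 17 members of the 19S cap (without Adrm1 and Sem1) above the untreated libraries, and the alternative caps lie highest at 8 h.

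In the 20S core, the alpha ring has 7 ubiquitous subunits and Psma8, which replaces Psma7 in the testis. At 4 h, 3 of 8 alpha genes lay above 0 with a median log2 fold change of -0.11, and at 8 h 2 of 8 did with a median of -0.034. Psma4 was the lowest of the ring at both times, with log2 fold changes of -0.28 at 4 h and -0.15 at 8 h. Psma8 had normalised values of 21.0 and 22.4 in untreated cells, 17.1 and 63.2 after 4 h, and 42.5 and 41.6 after 8 h. Only 1 of the 4 h libraries lay above the untreated pair, and both 8 h libraries did. Its log2 fold change was 0.58 ± 1.18 (SE) at 4 h and 0.93 ± 1.00 at 8 h, and neither passed the test (limma adjusted p = 0.991 and 0.900).

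None of the catalytic subunits of the beta ring was called. Psmb5, which carries the chymotrypsin-like site, had normalised values of 276 and 379 in untreated cells, 330 and 339 after 4 h, and 290 and 339 after 8 h. The treated libraries lay inside the range of the untreated pair. Its log2 fold changes were 0.046 ± 0.34 and -0.041 ± 0.33 (SE). Psmb6, which carries the caspase-like site, had 2401 and 2128 in untreated cells, 1936 and 1714 after 4 h, and 1733 and 2271 after 8 h. Both 4 h libraries lay below the untreated pair, but the 8 h libraries overlapped with it. Its log2 fold changes were -0.31 ± 0.15 and -0.19 ± 0.17 (limma adjusted p = 0.965 and 0.897). Psmb2, a beta subunit without an active site, had 2501 and 2827 in untreated cells, 2385 and 2675 after 4 h, and 2428 and 1876 after 8 h. Both 8 h libraries lay below the untreated pair, with a log2 fold change of -0.31 ± 0.16 at 8 h that did not pass the test (adjusted p = 0.892).

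Psmb7, which carries the trypsin-like site and is part of every constitutive core, was nearly absent from these tables. It had normalised values of 0 and 9.32 in untreated cells, 59.1 and 9.03 after 4 h, and 19.9 and 22.0 after 8 h, from whole numbers of 0, 5, 76, 8, 36 and 28. Per kilobase of exon its level in untreated cells was 1.36, whereas the level of Psmb4, a structural subunit of the same ring, was 4027. Its exons share 405 bases with Nek6 on the opposite strand, and the part of this overlap in the low value was not tested. With 0 in an untreated library its fitted log2 fold changes of 2.79 ± 2.09 at 4 h and 2.75 ± 1.95 at 8 h depend on the pseudocount and did not pass the test (adjusted p = 0.965 and 0.894). Psmb10, which takes the place of Psmb7 in the immunoproteasome, had 430 and 483 in untreated cells, 505 and 250 after 4 h, and 328 and 348 after 8 h. The 4 h libraries lay on either side of the untreated pair, whereas both 8 h libraries lay below it. Its log2 fold changes were -0.36 ± 0.38 and -0.43 ± 0.28 (adjusted p = 0.965 and 0.892). The immunoproteasome subunits outside the rule were low: Psmb8 had 60.4 and 16.8 in untreated cells, 20.2 and 62.1 after 4 h, and 20.4 and 66.8 after 8 h.

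Promoters of 4 members are shown because they hold a match to the core of the antioxidant response element, TGACNNNGC on either strand, in capitals. They include those of the catalytic subunits Psmb5 and Psmb6 and of Psme4. Each runs from 250 bases before to 50 bases after the start of the gene (RefSeq, GRCm38.p6).
Psmb5, chr14:54617946-54618245, minus strand: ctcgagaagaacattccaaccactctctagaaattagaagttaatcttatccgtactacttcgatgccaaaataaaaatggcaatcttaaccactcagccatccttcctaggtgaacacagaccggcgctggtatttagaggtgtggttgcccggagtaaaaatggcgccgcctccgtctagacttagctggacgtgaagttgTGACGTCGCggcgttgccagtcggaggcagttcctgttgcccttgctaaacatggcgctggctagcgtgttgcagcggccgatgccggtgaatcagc
Psmb6, chr11:70525107-70525406, plus strand: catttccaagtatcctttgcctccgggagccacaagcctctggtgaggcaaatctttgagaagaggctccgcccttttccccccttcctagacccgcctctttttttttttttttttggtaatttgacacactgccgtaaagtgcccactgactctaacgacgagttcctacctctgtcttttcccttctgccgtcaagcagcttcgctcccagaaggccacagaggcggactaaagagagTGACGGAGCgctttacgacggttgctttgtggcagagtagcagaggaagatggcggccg
Psmd9, chr5:123227940-123228239, plus strand: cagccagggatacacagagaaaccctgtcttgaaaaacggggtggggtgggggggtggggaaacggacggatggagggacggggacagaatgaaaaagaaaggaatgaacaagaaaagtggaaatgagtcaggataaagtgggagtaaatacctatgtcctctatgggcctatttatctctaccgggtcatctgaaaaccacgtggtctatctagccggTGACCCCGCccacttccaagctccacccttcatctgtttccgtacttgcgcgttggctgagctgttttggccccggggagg
Psme4, chr11:30771525-30771824, plus strand: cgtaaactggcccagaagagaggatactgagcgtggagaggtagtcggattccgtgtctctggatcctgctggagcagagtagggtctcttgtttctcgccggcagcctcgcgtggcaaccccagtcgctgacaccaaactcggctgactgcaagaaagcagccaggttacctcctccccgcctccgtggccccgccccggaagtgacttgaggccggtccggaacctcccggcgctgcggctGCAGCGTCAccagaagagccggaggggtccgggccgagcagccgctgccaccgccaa
Of the 46 proteasome genes, 38 had an entry, with 41 promoters in all, and 6 of these promoters held this match (14.6%, against 12.4% of 32851 promoters). The other 2 were those of Psmc6 and Psmd12. CCAAT, the box bound by NF-Y, was found on either strand in 12 of the 41 promoters (29.3%, against 37.4% of all). It was absent from the 4 promoters shown. Members without an entry were Psma8, Psmb1, Psmb2, Psmb7, Psmc3, Psmd3, Psmd7 and Psmg2. A match is a description of the letters and not a site.

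The 6 ATPases of the 19S cap, Psmc1 to Psmc6, unfold the substrate. At 4 h, 5 of 6 lay above 0 with a median log2 fold change of 0.14, and at 8 h 3 of 6 did with a median of 0.044. Psmc1 was highest at 4 h (0.26) and Psmc4 at 8 h (0.24), and Psmc5 was lowest at both times (-0.090 and -0.17). Of the 11 other subunits of the cap, 9 lay above 0 at each time, with medians of 0.038 at 4 h and 0.046 at 8 h. Psmd14, the metalloprotease that cuts ubiquitin off the substrate, had normalised values of 2138 and 2137 in untreated cells, 2040 and 2339 after 4 h, and 2272 and 2310 after 8 h. The 4 h libraries lay on either side of the untreated pair and the 8 h libraries above it, with log2 fold changes of 0.030 ± 0.14 and 0.10 ± 0.12. Psmd7, its partner in the cap, had 4713 and 4363 in untreated cells, 4938 and 4874 after 4 h, and 5197 and 5378 after 8 h. All 4 treated libraries lay above the untreated pair. Its log2 fold change at 8 h was 0.22 ± 0.094 with an unadjusted p of 0.0473 (adjusted p = 0.892). It was chosen for description after its values were seen, as were Psme4 and Psmf1 in the next paragraph.

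The alternative caps held the highest log2 fold changes at 8 h among members whose mean reached 100. Psme3 encodes PA28 gamma, a cap of nuclear proteasomes. It had normalised values of 698 and 789 in untreated cells, 1379 and 899 after 4 h, and 1003 and 929 after 8 h. All treated libraries lay above the untreated pair, although the libraries at 4 h differed from each other by more than either 8 h library differed from the untreated ones. The log2 fold change was 0.58 ± 0.25 at 4 h (unadjusted p = 0.0446, adjusted p = 0.965) and 0.38 ± 0.19 at 8 h (adjusted p = 0.892). Without library 1 of the 4 h group the first was 0.28, and without library 2 it was 0.89. Psme4 encodes PA200, a cap linked to the degradation of acetylated histones. It had 1635 and 1691 in untreated cells, 1826 and 1828 after 4 h, and 2425 and 1913 after 8 h. All treated libraries again lay above the untreated pair, with log2 fold changes of 0.13 ± 0.15 and 0.38 ± 0.16 (unadjusted p at 8 h = 0.0459, adjusted p = 0.892). Without library 1 of the 8 h group the value at 8 h was 0.21. Psmf1, a proteasome inhibitor and regulator known as PI31, had 540 and 572 in untreated cells, 720 and 674 after 4 h, and 759 and 615 after 8 h. Its treated libraries also lay above the untreated pair, and its log2 fold changes of 0.32 ± 0.24 and 0.30 ± 0.23 did not pass the test. Without library 1 of the 8 h group its value at 8 h was 0.15, and without library 2 it was 0.45. The PA28 subunits induced by interferon, Psme1 and Psme2, each overlapped with the untreated pair at both times, with log2 fold changes between -0.060 and 0.10.

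**Figure D4:**
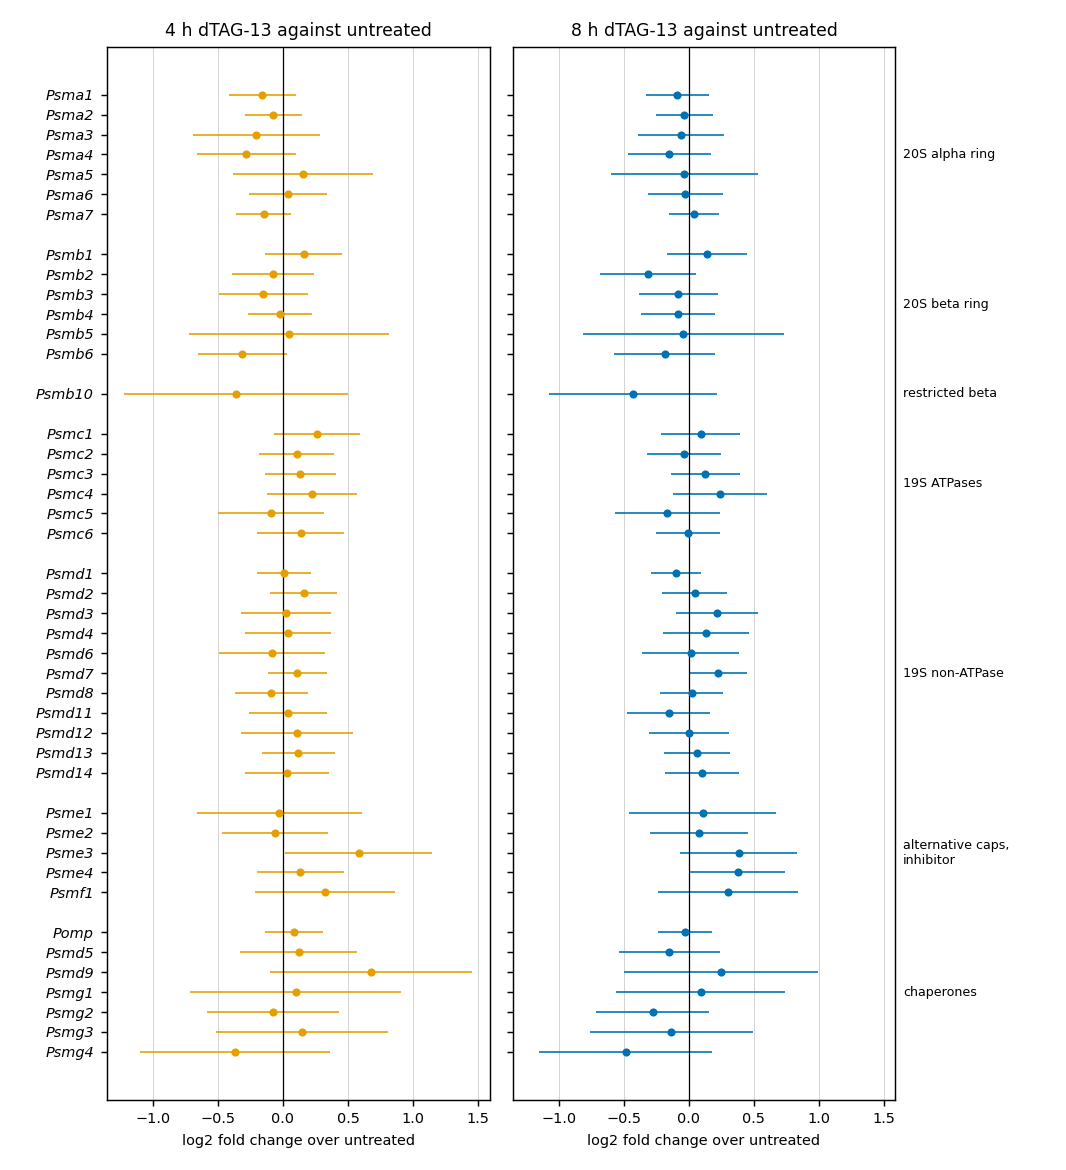
Log2 fold change over untreated cells with its 95% interval (limma) for the 43 members whose deposited means reached 100, at 4 h (left) and 8 h (right), grouped by role. Nearly all intervals cross 0, the exceptions being Psme3 at 4 h and Psmd7 and Psme4 at 8 h, none of which passed the test after adjustment.

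Among members whose mean reached 100, the assembly chaperones held the lowest log2 fold change at both times and the highest at 4 h. Pomp, which matures the core and is lost once it is complete, had normalised values of 5627 and 5251 in untreated cells, 5996 and 5529 after 4 h, and 5288 and 5362 after 8 h. At each time its libraries overlapped with the untreated pair, although both 8 h libraries lay below those at 4 h, and its log2 fold changes were 0.082 ± 0.098 and -0.028 ± 0.090. Psmg4, a subunit of the chaperone pair that builds the alpha ring, had 419 and 464 in untreated cells, 410 and 286 after 4 h, and 332 and 298 after 8 h. All treated libraries lay below the untreated pair. Its log2 fold changes were -0.37 ± 0.32 and -0.49 ± 0.28 (adjusted p = 0.965 and 0.892). The value at 4 h was -0.62 without library 1 of that group and -0.11 without library 2. Psmd9, a chaperone of the ATPase ring, had 283 and 259 in untreated cells, 358 and 526 after 4 h, and 325 and 317 after 8 h. All treated libraries lay above the untreated pair, with log2 fold changes of 0.68 ± 0.34 and 0.25 ± 0.32 (adjusted p = 0.965 and 0.910). Without library 2 of the 4 h group the first was 0.40. Its exons share 1849 bases with the long non-coding gene Gm26745 on the opposite strand.

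Psmd10, or gankyrin, another chaperone of the ATPases, was close to the threshold, with 28.9 and 0 in untreated cells, 38.9 and 20.3 after 4 h, and 28.7 and 81.7 after 8 h. The groups overlapped at both times, and its fitted log2 fold changes of 2.28 ± 1.93 and 3.16 ± 1.87 rest on the untreated library at 0. Without that library they were -0.035 and 0.73. Psmc3ip had 49.9 and 110 in untreated cells, 1.55 and 45.2 after 4 h, and 16.6 and 104 after 8 h. Its 2 libraries differed widely in every group, and its log2 fold changes were -2.73 ± 1.48 and -0.80 ± 1.05 (adjusted p = 0.965 and 0.914). Its exons share 385 bases with Mlx on the opposite strand.

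Genes that work with these members were examined from lists. Of 9 proteasome genes outside the rule that were tested, 0 were called at either time by limma, 2 lay above 0 at each time, and their median was -0.13 (log2) at 4 h and -0.073 at 8 h. Adrm1, a ubiquitin receptor of the 19S cap, had normalised values of 769 and 802 in untreated cells, 551 and 604 after 4 h, and 460 and 422 after 8 h. All treated libraries lay below the untreated pair and the 8 h libraries below those at 4 h. Its log2 fold change was -0.45 ± 0.23 at 4 h and -0.83 ± 0.22 at 8 h (unadjusted p at 8 h = 0.00676, adjusted p = 0.892). Sem1, the smallest subunit of the cap, had 7299 and 8244 in untreated cells, 7662 and 6552 after 4 h, and 7740 and 6472 after 8 h, and the groups overlapped. Psmb9, another immunoproteasome subunit, had 158 and 37.3 in untreated cells, 87.0 and 0 after 4 h, and 65.1 and 43.2 after 8 h.

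Of 14 genes tested for ubiquitin supply, shuttles and the segregase, 0 were called at either time by limma, 2 had an unadjusted p below 0.05 at 4 h (3.6% of all genes) and 1 at 8 h (4.52% of all genes), and 5 lay above 0 at each time, against 49.6% of all genes at 4 h and 50.6% at 8 h. Of 9 regulators of proteasome gene transcription, 0 were called, with 0 at 4 h and 1 at 8 h at an unadjusted p below 0.05, beside the same 3.6% and 4.52% of all genes. Of these 9, 5 lay above 0 at 4 h and 2 at 8 h, beside the same 49.6% and 50.6%. Their median log2 fold change was 0.017 at 4 h and -0.091 at 8 h. Nfe2l1 had 4328 and 4421 in untreated cells, 4523 and 4012 after 4 h, and 4519 and 4047 after 8 h. Nfe2l2, its relative that responds to oxidants, had 4394 and 5398 in untreated cells, 5219 and 5533 after 4 h, and 4875 and 5019 after 8 h. For both genes the treated libraries overlapped with the untreated pair at each time, and the log2 fold changes were -0.040 and -0.031 for Nfe2l1 and 0.14 and 0.025 for Nfe2l2.

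Some members share sequence with other genes, so that their reads may have been split. Exons of 12 members overlap exons of another gene, most of them on the opposite strand, and the strand setting of the counting was not given in the labels or methods. Transcripts of 11 members align over at least 200 bases at 95% identity or more with a copy elsewhere, among them Psma3 with 4 copies and Psmb5 with 1. Psme2 shares 794 bases at 99.4% identity with Psme2b, which lay below the threshold.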

How the data were processed

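Nascent RNA was sequenced from 6 samples in 3 groups of 2 (untreated, dTAG-13 for 4 h, dTAG-13 for 8 h). The authors assigned reads aligned to mm10 to genes with featureCounts, scaled them by ERCC spike-ins and ran DESeq2. The labels and the study's methods name different library kits, total RNA and 3′ mRNA, so levels per kilobase are only a guide. The deposited signal is a mean of normalised values over the 4 libraries of a comparison, 1 table for each time. The tables also hold the authors' fold changes, their standard errors, p-values and adjusted p-values, which were not used, and 4 further tables of called genes were not used.

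Each deposited mean has up to 15 significant digits and is the mean of 4 whole numbers, each divided by a size factor. The whole numbers were recovered by a lattice search over both tables at once. Of 23783 genes with a mean above 0, 23626 had a single solution, 29 had several and 128 were not searched to the end. In 2701 genes solved from each table alone, the numbers of the shared pair were equal in 2701. This check took only genes with means below 100 in both tables, and most members lay above that level. Libraries were placed in groups from this pair alone: numbers in both tables are from untreated cells. Size factors recomputed by the median of ratios were within 0.09% of those implied. The procedure was also run on simulated libraries, with the same small dispersion for every gene and no gaps in the numbers. That run only checked the scripts and does not cover the spread or the gaps of these libraries.

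Tests used limma 3.58.1 (R 4.3.3) on log2(normalised value + 1), with a mean-variance trend, over genes whose mean reached 10, two-sided, with Benjamini-Hochberg adjustment over all genes tested and calls at adjusted p below 0.05. Each time was fitted against untreated cells within its own table, and 8 h against 4 h over all 6 libraries scaled together. Levels in the text are from this joint scaling. The pseudocount understates changes of low genes. Described in full were members called, Psmb5, Psmb6, Psmb7, Psmb10, Psmd14 and Pomp, and the 4 highest and 4 lowest members by log2 fold change at each time; of other genes, Adrm1, Sem1, Psmb8, Psmb9, Nfe2l1 and Nfe2l2. Exon overlaps and copies were taken from GENCODE M21 (GRCm38) with BLAST 2.17.0. The members and lists were chosen with earlier results of these data known. Alternatives were another pseudocount, other minimum means, scaling by sums, no size factors and a 19S cap sum with Adrm1 and Sem1 (both chosen after seeing the data), no trend, 1 fit of all 6 libraries, and leaving out each library.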

Additional observations from a re-analysis of the deposited data

Results flagged for a closer look

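The summed normalised value of the 8 assembly chaperones (Pomp, Psmd5, Psmd9, Psmd10 and Psmg1 to Psmg4) was 9750 and 9062 in untreated cells, 10193 and 9842 at 4 h, and 9013 and 8828 at 8 h. Both 4 h libraries lay above and both 8 h libraries below the untreated pair, and the 8 h mean was 0.891 of the 4 h mean. The difference of the sums between the times was not tested. Gene by gene, limma called 0 of the 8 between 8 h and 4 h, and 7 lay below 0. The lowest unadjusted p was 0.172 and the lowest adjusted p 0.962. Pomp weighs most in the sum, with a mean of 5439 in untreated cells, where the mean of the sum was 9406.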

How the results depend on the processing

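Values are relative to the median gene. Without size factors the members' median log2 fold change was 0.78 at 4 h, 1.25 at 8 h and 0.48 at 8 h against 4 h (all genes 0.74, 1.25 and 0.51), and limma called 36 members and 6071 genes at 8 h and 1 gene at 8 h against 4 h. Among the members described in full, the sign then turned at 4 h for Psmb10 (0.38), Psmb2 (0.67), Psmb6 (0.43) and Psmg4 (0.37). At 8 h it turned for Pomp (1.22), Psmb10 (0.82), Psmb2 (0.93), Psmb5 (1.20), Psmb6 (1.06), Psmc3ip (0.41) and Psmg4 (0.76). Members outside this list turned as well, such as Psma1, with whole numbers of 2660 and 1982 in untreated cells and 4180 and 2831 after 4 h. Without a trend, limma called 82, 97 and 34 genes, 0 of them members. When the mean had to reach 100, the median at 8 h against 4 h was -0.061. With each library left out in turn, the medians ran from 0.035 to 0.090 at 4 h, from -0.0053 to 0.038 at 8 h and from -0.044 to -0.026 at 8 h against 4 h. Log2 fold changes at 4 h then ran from -0.33 to 1.49 for Psma8, -0.86 to 0.15 for Psmb10, -0.17 to 0.016 for Psmb2, -0.18 to 0.28 for Psmb5, -0.035 to 4.59 for Psmd10 and -0.071 to 0.13 for Psmd14. At 8 h they ran from -0.079 to 0.024 for Pomp, -0.27 to 0.18 for Psmb5, -0.38 to 0.0094 for Psmb6 and -2.10 to 0.49 for Psmc3ip. Sums over parts of the complex also moved with single libraries, from -8.64% to -2.35% at 4 h and -5.63% to -2.15% at 8 h for the 20S core, 4.50% to 6.64% and 2.17% to 4.27% for the 17 members of the 19S cap, 3.19% to 20.7% and 11.8% to 25.5% for the alternative caps with the inhibitor, and 2.75% to 10.5% and -8.50% to -1.56% for the assembly chaperones. No member was called by any alternative other than the one without size factors. A lone library left in a group is assumed to vary like the others. The causes were not tested. No paired analysis was possible because the recovered libraries carry no replicate numbers. Depth in reads is unknown, and 2 libraries a group set the precision.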
